A study of Mus musculus with 13 samples.

Results

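Integrins are the adhesion receptors by which lymphocytes hold on to other cells and to matrix. Here 10 integrin subunit genes were followed in mouse natural killer (NK) cells, 7 of them alpha chains (Itga1, Itga2, Itga4, Itga5, Itgae, Itgal and Itgam) and 3 of them beta chains (Itgb1, Itgb2 and Itgb7). They were picked by name, as subunits linked to residence or maturation of NK cells, and read out by their Ensembl identifiers among 54532 gene identifiers. All 10 had counts and all 10 passed the filter on low counts in each comparison.

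An integrin is a heterodimer of an alpha and a beta chain, and the pair decides which ligand is bound. Itga1 (CD49a) and Itga2 (CD49b, the antigen of the DX5 antibody) are collagen-binding partners of Itgb1, and in the mouse liver they are the usual surface markers that separate resident NK cells from conventional NK cells. Itgam (CD11b) and Itgal (CD11a) pair with Itgb2, and CD11b is gained as conventional NK cells mature, whereas Itga4 pairs with Itgb1 or Itgb7 and Itgae with Itgb7.

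The study compared RNA from sorted NK cells of 2 kinds, liver-resident (LrNK) and conventional (cNK), each from mice labelled CD8KO and from wild-type (WT) mice. All mice were C57BL/6J and 8 to 10 weeks old. The 4 groups were LrNK labelled CD8KO (3 libraries), LrNK WT (4 libraries), cNK labelled CD8KO (3 libraries) and cNK WT (3 libraries). The labels give liver lymphocytes as the origin of every LrNK library and splenocytes as that of every cNK library, so cell type and tissue cannot be told apart in any comparison of LrNK with cNK. The labels do not give the sort gates. If CD49a or CD49b was in a gate, the difference of Itga1 or Itga2 between LrNK and cNK was set by the sort and is no finding. The labels do not say which CD8 gene was targeted, or whether libraries came from separate or pooled animals, so p-values measure the spread between these samples.

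Depth per library, each figure times 1000000 counts, was 35.9 to 47.7 in LrNK labelled CD8KO, 30.6 to 43.0 in LrNK WT, 48.6 to 59.7 in cNK labelled CD8KO and 53.5 to 72.7 in cNK WT. Cd8a, the CD8 alpha chain gene, goes against the CD8KO label: it had 41.6 to 45.1 CPM (counts per 1000000 counted reads) in LrNK labelled CD8KO against 18.5 to 22.4 in LrNK WT, and 85.9 to 109 CPM in cNK labelled CD8KO against 0.560 to 0.578 in cNK WT. The groups are therefore called by their labels throughout, and an exchange of labels, which was not tested, would turn every direction by label. Libraries 2 and 3 of LrNK labelled CD8KO, and libraries 2 and 4 of LrNK WT agreed far more closely than any other pair within a group and were each summed to 1 sample. That leaves n = 2 for LrNK labelled CD8KO and n = 3 for each of the other groups. Library 1 of LrNK labelled CD8KO and libraries 1 and 3 of LrNK WT stood apart with fewer than 16000 detected genes. NK identity genes (8, among them Ncr1 and Klrb1c) summed to 5792 to 6776 CPM in LrNK labelled CD8KO and 7534 to 9265 in LrNK WT, against 11130 to 11370 in cNK labelled CD8KO and 10930 to 11240 in cNK WT, with none at 0 in any library. Xist, a transcript of female cells, was at 94.9 to 136 CPM in LrNK labelled CD8KO against 0.282 to 1.90 in LrNK WT. In cNK it ran from 0.247 to 815 CPM in the libraries labelled CD8KO, against at most 0.299 in WT. The Xist difference and the label therefore cannot be told apart in LrNK.

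Itga1 and Itga2 are neighbours on mouse chromosome 13. Itga2 (ENSMUSG00000015533) lies at chr13:114833081-114932100 and Itga1 (ENSMUSG00000042284) at chr13:114953096-115101964 (GRCm38, both on the minus strand). Their promoters are shown because these adjacent genes stood at opposite ends of the LrNK to cNK difference. The promoter of Itga4 (ENSMUSG00000027009, chr2:79255426-79333123, plus strand) is shown because it held most of the motif matches. Each line gives the 250 bases before the start site, from RefSeq (GRCm38.p6), 5′ to 3′ in the sense of the gene, with matches to 3 short motifs in capitals.
Itga1 (chr13:115101965-115102214, minus strand): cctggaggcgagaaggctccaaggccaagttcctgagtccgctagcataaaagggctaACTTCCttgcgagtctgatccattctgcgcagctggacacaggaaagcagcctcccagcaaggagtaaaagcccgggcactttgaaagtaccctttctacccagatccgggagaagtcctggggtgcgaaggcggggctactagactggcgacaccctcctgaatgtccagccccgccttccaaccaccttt
Itga2 (chr13:114932101-114932350, minus strand): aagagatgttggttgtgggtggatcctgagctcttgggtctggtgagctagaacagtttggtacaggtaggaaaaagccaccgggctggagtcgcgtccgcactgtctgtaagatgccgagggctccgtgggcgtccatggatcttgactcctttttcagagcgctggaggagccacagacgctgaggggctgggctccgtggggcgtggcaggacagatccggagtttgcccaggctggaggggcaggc
Itga4 (chr2:79255176-79255425, plus strand): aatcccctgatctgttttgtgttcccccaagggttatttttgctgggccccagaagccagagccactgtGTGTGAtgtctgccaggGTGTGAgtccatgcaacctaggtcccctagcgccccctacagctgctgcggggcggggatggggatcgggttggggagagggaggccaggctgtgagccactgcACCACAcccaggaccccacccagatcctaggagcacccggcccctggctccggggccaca
The motifs were TCACAC for T-box factors (GTGTGA on the other strand), TGTGGT for RUNX factors (ACCACA on the other strand) and GGAAGT for ETS factors (ACTTCC on the other strand), families that include regulators of NK cells. The capitals in Itga4 are a T-box match at each of −181 and −164 and a RUNX match at −60, counted from the start site, and those in Itga1 are an ETS match at −192. No overlap of one motif with another occurred. Of all 32851 promoters of this length, 12.3% held the T-box letters, 14.0% the RUNX letters and 19.7% the ETS letters. None of the 3 was found in Itga2, Itga5, Itgam, Itgb1 or Itgb7, and 7 of the 10 genes had a promoter in the table. A match is a run of letters and not a measured binding site.

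Per kb of exon, the beta chains and Itgal were the most abundant of these subunits in every group. In cNK labelled CD8KO the level was 682 ± 21.01 CPM per kb for Itgb2, 401 ± 2.88 for Itgal, 290 ± 6.02 for Itgb1 and 279 ± 8.36 for Itgb7 (SD, n = 3). In cNK WT it was 687 ± 25.5 CPM per kb for Itgb2, 391 ± 4.92 for Itgal, 280 ± 10.4 for Itgb1 and 251 ± 6.47 for Itgb7 (SD, n = 3). Sample ranges of Itgb1 and Itgb7 overlapped in cNK labelled CD8KO and not in cNK WT, and the other neighbours named here did not overlap. Itga4, Itga2, Itgam and Itga5 followed in that order in all 6 cNK samples, and then Itgae at 0.928 to 1.47 CPM per kb and, last, Itga1 at 0.537 to 1.04.

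In LrNK the order differed at both ends. Itgb2, Itgb7 and Itgal held the top. The Itgb7 level was 2.08 to 5.094 times that of Itgb1 per kb in LrNK samples, against 0.8835 to 1.001 times in cNK samples. In LrNK WT the sample range of Itgb2 (282 to 503 CPM per kb) overlapped those of Itgb7 (368 to 432) and Itgal (275 to 336), which did not overlap each other, and Itgb1 was next in all 5 LrNK samples. Itga1 was the fifth subunit in all 3 samples of LrNK WT, whereas in both samples of LrNK labelled CD8KO it came after Itga4, Itga5 and Itgam. Itgae was last in every LrNK sample, at 0.410 to 0.888 CPM per kb in LrNK labelled CD8KO and 0 to 0.163 in LrNK WT.

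**Figure D1:**
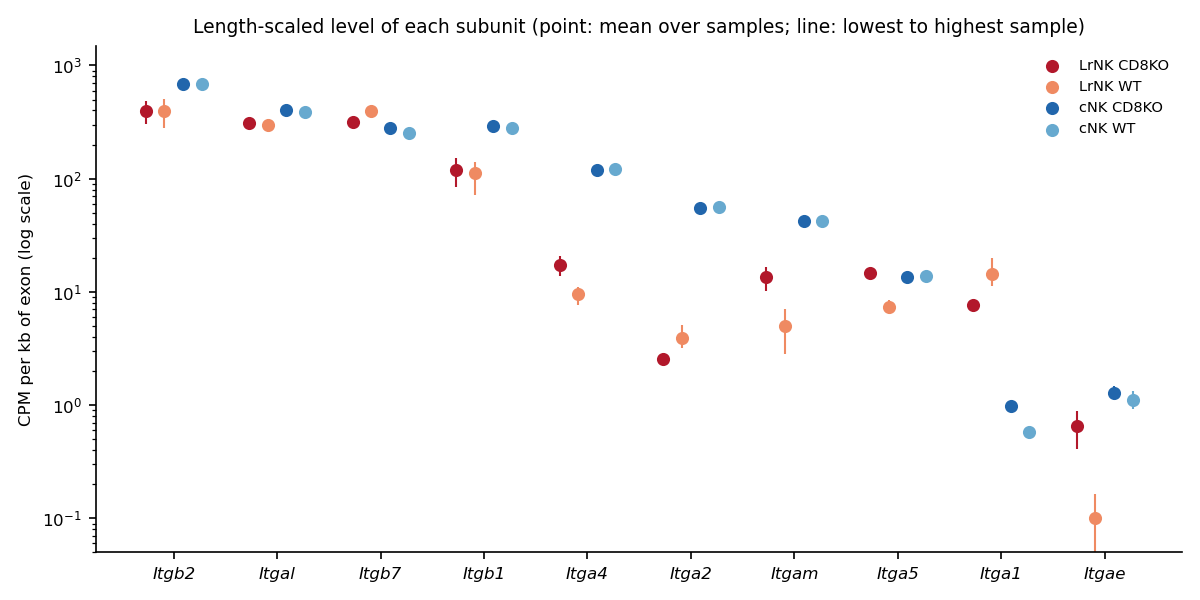
CPM per kb of exon (log axis) of the 10 subunits in the 4 groups, with a point for the mean over samples and a line from the lowest to the highest sample. The line of Itgae in LrNK WT runs off the axis because 1 sample was at 0. Itgb2, Itgal, Itgb7 and Itgb1 stood above all other subunits in every group, and Itga1 was above Itga2 in both LrNK groups and below it in both cNK groups.

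Resident and conventional NK cells differed in most of these subunits. In WT mice, Itga1 and Itgb7 were higher in LrNK than in cNK, and Itga2, Itga4, Itgam, Itga5, Itgb1 and Itgb2 were lower. In mice labelled CD8KO, Itga1 was higher in LrNK and Itga2, Itga4, Itgam, Itgb1 and Itgb2 were lower. That makes 8 of 10 subunits called in WT mice, where 20.7% of 16456 tested genes were called (10.9% higher and 9.83% lower), and 6 of 10 in mice labelled CD8KO, where 27% of 17795 were called (15.4% higher and 11.6% lower). DESeq2 called 10 of 10 in WT mice and 8 of 10 in mice labelled CD8KO, where it called 29% and 38.1% of all genes. Sample ranges of LrNK and cNK did not overlap for all 10 subunits in WT mice (2 higher and 8 lower, where 17% and 31.7% of genes did the same) or for 9 in mice labelled CD8KO (2 higher and 7 lower, where 23.3% and 38.4% did). A gene was called at a Benjamini-Hochberg adjusted p under 0.05 in edgeR's quasi-likelihood test. The median log2 difference of the 10 was −1.03 in WT mice and −0.79 in mice labelled CD8KO, beside −0.08 and −0.05 over all genes tested. All values after ± on log2 differences are standard errors.

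The collagen-binding alpha chains went opposite ways. Itga1 had 149, 136 and 138 CPM in LrNK labelled CD8KO and 369, 223, 209 and 227 CPM in LrNK WT. Its cNK libraries had 17.0, 19.3 and 18.1 CPM in cNK labelled CD8KO and 10.8, 11.3 and 10.0 CPM in cNK WT. Every LrNK library lay far above every cNK library. Itga1 was 26.4-fold higher in LrNK WT than in cNK WT (log2 difference 4.72 ± 0.26, edgeR adjusted p = 0.000164) and 8.57-fold higher in LrNK than in cNK labelled CD8KO (3.10 ± 0.10, edgeR adjusted p = 0.000123).

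Itga2 was the mirror image. It had 16.5, 18.4 and 22.4 CPM in LrNK labelled CD8KO and 36.5, 22.5, 24.9 and 23.1 CPM in LrNK WT, against 385, 379 and 403 CPM in cNK labelled CD8KO and 405, 380.3 and 406 CPM in cNK WT. No LrNK library came near a cNK library. The log2 difference was −3.75 ± 0.19 in WT mice (edgeR adjusted p = 0.00014) and −4.27 ± 0.17 in mice labelled CD8KO (edgeR adjusted p = 0.000196). Per kb, the Itga1 level was 2.59 to 3.47 times the Itga2 level in LrNK labelled CD8KO and 3.22 to 3.88 times in LrNK WT, against 0.0170 to 0.0196 times in cNK labelled CD8KO and 0.00945 to 0.0114 times in cNK WT.

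**Figure D2:**
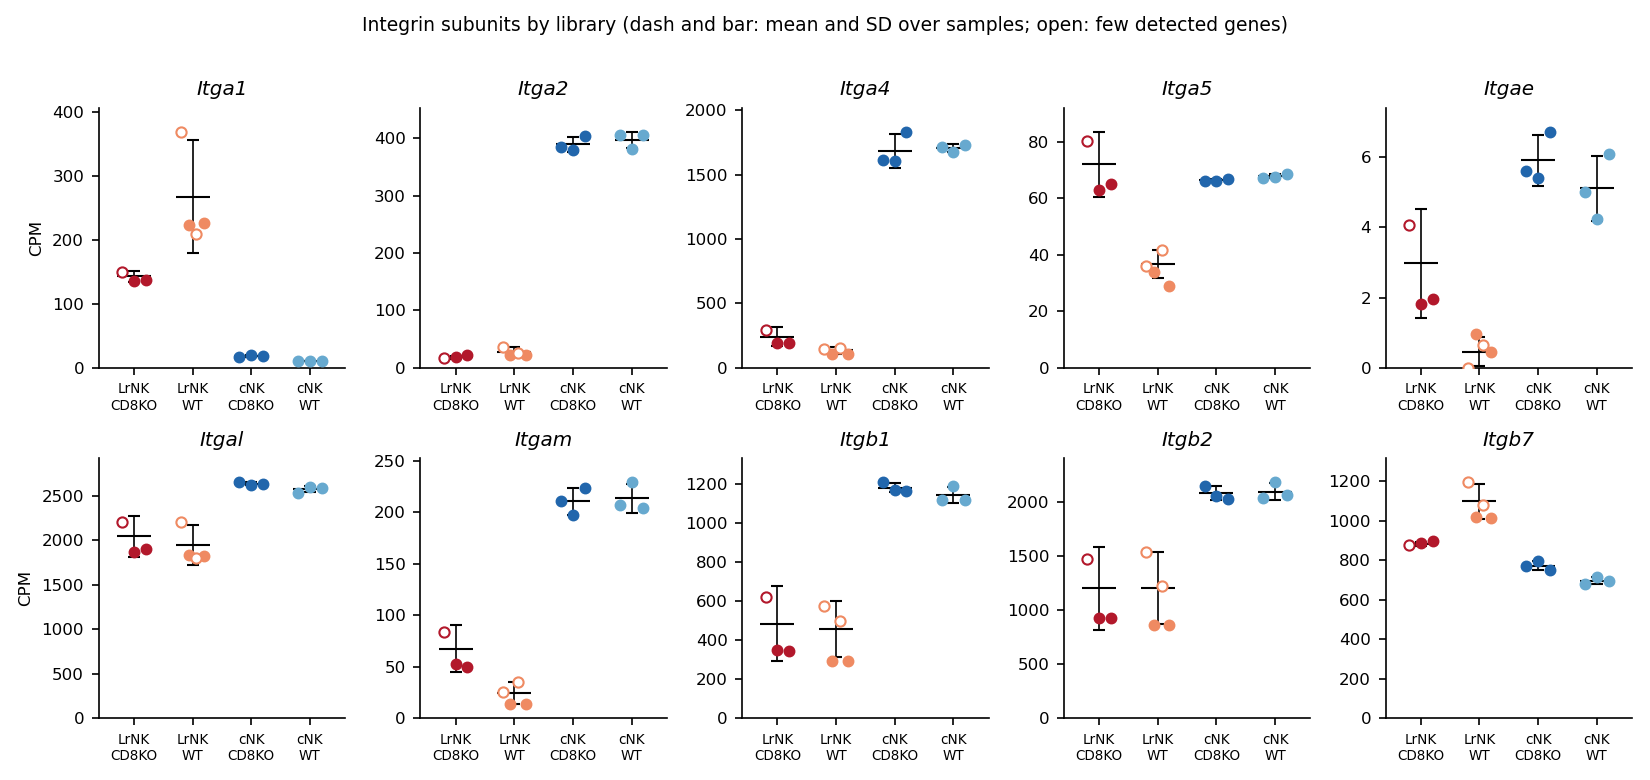
CPM of each subunit by library in the 4 groups, on linear axes that start at 0. Filled points are libraries with many detected genes, open points the 3 LrNK libraries with few, and the dash with its bar gives mean and SD over samples (n = 2, 3, 3 and 3 from left to right). Itga1 was high in LrNK and Itga2, Itga4 and Itgam in cNK, with no overlap between the cell types.

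Itga4 (CD49d), which pairs with Itgb1 or Itgb7 and binds VCAM and MAdCAM, had 293, 196 and 189 CPM in LrNK labelled CD8KO and 142, 104, 155 and 110 CPM in LrNK WT, against 1611, 1603 and 1834 CPM in cNK labelled CD8KO and 1713, 1673 and 1732 CPM in cNK WT. Its LrNK and cNK libraries did not overlap. The log2 difference was −3.59 ± 0.15 in WT mice (edgeR adjusted p = 7.76e-05) and −2.68 ± 0.19 in mice labelled CD8KO (edgeR adjusted p = 0.00087). Exons of Cerkl, on the opposite strand, share 8.04% of the exon bases of Itga4, and Cerkl had 1.05 to 4.37 CPM.

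Itgb7 (ENSMUSG00000001281, chr15:102215995-102231944, minus strand), the beta chain of the gut-homing and epithelium-binding integrins, went the other way from its partner. It had 876, 889 and 897 CPM in LrNK labelled CD8KO and 1197, 1022, 1079 and 1017 CPM in LrNK WT, against 774, 796 and 750.0 CPM in cNK labelled CD8KO and 680.1, 716 and 694 CPM in cNK WT. Every LrNK library was above every cNK library. It was 1.67-fold higher in LrNK WT than in cNK WT (0.74 ± 0.11, edgeR adjusted p = 0.00596). The call was lost without any 1 of the 3 cNK WT samples, with adjusted p of 0.0668, 0.0512 and 0.0644 without samples 1, 2 and 3. In mice labelled CD8KO the difference did not pass (0.32 ± 0.10, edgeR adjusted p = 0.069). With 1 sample left out, that difference ran from 0.22 to 0.37, and leaving out either LrNK sample leaves 1 there.

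Itgae (CD103, ENSMUSG00000005947, chr11:73090583-73147446, plus strand), the alpha chain that pairs with Itgb7 to bind E-cadherin, was the least abundant subunit of LrNK. It had 4.07, 1.81 and 1.96 CPM in LrNK labelled CD8KO and 0, 0.954, 0.640 and 0.458 CPM in LrNK WT, against 5.60, 5.40 and 6.73 CPM in cNK labelled CD8KO and 4.995, 4.25 and 6.09 CPM in cNK WT. The count of 0 in library 1 of LrNK WT allows up to 0.0705 CPM (3 counts), which covers counting error only. LrNK lay below cNK for either label, but the difference did not pass in WT mice (−3.34 ± 1.38, edgeR adjusted p = 0.145) or in mice labelled CD8KO (−0.89 ± 0.39, edgeR adjusted p = 0.158). It passed without library 1 of LrNK WT (−2.79, edgeR adjusted p = 0.0193). Without library 1 of LrNK labelled CD8KO, which leaves 1 LrNK sample, the difference was −1.49. Summed per kb, Itga4 and Itgae reached 0.0441 to 0.0691 of the Itgb7 level in LrNK labelled CD8KO and 0.0211 to 0.0288 in LrNK WT, against 0.403 to 0.490 in cNK labelled CD8KO and 0.467 to 0.504 in cNK WT. These are ratios of RNA, and surface dimers were not measured.

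Among the leukocyte integrins that share Itgb2, Itgam differed most. Itgam (CD11b, ENSMUSG00000030786, chr7:128062640-128118491, plus strand), a complement and ICAM receptor carried by mature NK cells and by myeloid cells, had 84.0, 52.5 and 50.2 CPM in LrNK labelled CD8KO and 25.1, 14.3, 35.55 and 14.1 CPM in LrNK WT. Its cNK libraries had 211, 197 and 223 CPM in cNK labelled CD8KO and 207, 229 and 204 CPM in cNK WT. Each LrNK library was below each cNK library. The log2 difference was −3.03 ± 0.30 in WT mice (edgeR adjusted p = 0.00155) and −1.52 ± 0.20 in mice labelled CD8KO (edgeR adjusted p = 0.00509). The predicted gene Gm49368 shares 68.7% of the exon bases of Itgam on the same strand and had 0 to 7.53 CPM, so part of the Itgam reads may be counted there. With its counts added to Itgam, the log2 differences were −3.05 in WT mice and −1.56 in mice labelled CD8KO.

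Itgal (CD11a, ENSMUSG00000030830, chr7:127296260-127335138, plus strand), the ICAM-binding alpha chain that lymphocytes carry in general, had 1862 to 2205 CPM in LrNK labelled CD8KO and 1804 to 2206 CPM in LrNK WT, against 2614 to 2651 CPM in cNK labelled CD8KO and 2533 to 2593 CPM in cNK WT. LrNK lay below cNK without overlap, but by a small margin that did not pass in WT mice (−0.32 ± 0.13, edgeR adjusted p = 0.128) or in mice labelled CD8KO (−0.25 ± 0.10, edgeR adjusted p = 0.13). It passed without library 1 of LrNK WT (−0.42, edgeR adjusted p = 0.0444). In mice labelled CD8KO the difference was −0.32 without library 1 and −0.21 without the summed sample of LrNK. Either fit leaves 1 LrNK sample. Itgb2 (CD18, ENSMUSG00000000290, chr10:77530252-77565708, plus strand), the shared beta chain, had 927 to 1475 CPM in LrNK labelled CD8KO and 860.2 to 1534 CPM in LrNK WT, against 2031 to 2153 CPM in cNK labelled CD8KO and 2040 to 2185 CPM in cNK WT. The highest Itgb2 values of LrNK were those of the libraries with few detected genes. It was lower in LrNK WT than in cNK WT (−0.73 ± 0.19, edgeR adjusted p = 0.0404) and lower in LrNK than in cNK labelled CD8KO (−0.68 ± 0.18, edgeR adjusted p = 0.0454). In WT mice that call was lost without library 3 of LrNK (adjusted p = 0.0665) or without cNK sample 1, 2 or 3 (0.12, 0.128 and 0.125). In mice labelled CD8KO it was lost without cNK sample 1, 2 or 3 (0.159, 0.152 and 0.137). With the replicate number as a block, the call of Itgb2 was lost for either label.

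The remaining subunits belong to the matrix receptors. Itgb1 (CD29, ENSMUSG00000025809, chr8:128685654-128733200, plus strand), the beta chain of the collagen and fibronectin receptors, had 347 to 620.2 CPM in LrNK labelled CD8KO and 294 to 573.5 CPM in LrNK WT, against 1166 to 1211 CPM in cNK labelled CD8KO and 1120 to 1193 CPM in cNK WT. Its LrNK libraries were all below its cNK libraries, with log2 differences of −1.26 ± 0.22 in WT mice (edgeR adjusted p = 0.011) and −1.18 ± 0.23 in mice labelled CD8KO (edgeR adjusted p = 0.0167). In mice labelled CD8KO the call was lost without cNK sample 1, 2 or 3 (adjusted p = 0.0774, 0.0747 and 0.0741). Itga5 (CD49e, ENSMUSG00000000555, chr15:103344286-103366763, minus strand), the fibronectin-binding partner of Itgb1, had 80.2, 62.7 and 65.1 CPM in LrNK labelled CD8KO and 36.15, 33.9, 41.8 and 28.9 CPM in LrNK WT. The cNK libraries had 66.07 to 66.75 CPM when labelled CD8KO and 67.03 to 68.48 CPM when WT. LrNK WT was thus below cNK WT (−0.81 ± 0.12, edgeR adjusted p = 0.00598), whereas LrNK labelled CD8KO overlapped cNK labelled CD8KO (0.24 ± 0.11, edgeR adjusted p = 0.17). Without the summed sample, which leaves 1 LrNK sample, the difference of Itga5 in mice labelled CD8KO was 0.32.

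**Figure D3:**
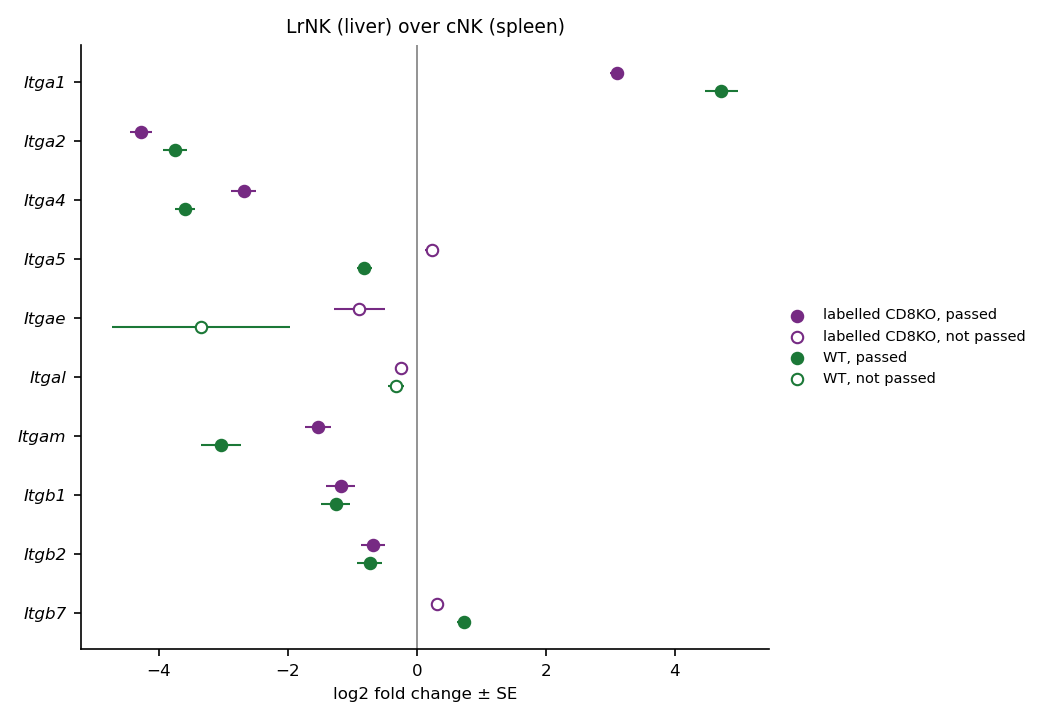
Log2 fold change of LrNK over cNK for each subunit in mice labelled CD8KO (purple) and WT mice (green), with bars of 1 SE; filled points passed an edgeR adjusted p of 0.05 and open points did not. Itga1 stood alone far to the right, at 3.10 and 4.72, and Itga2, Itga4 and Itgam were the lowest filled points for either label; Itgae lay left as well with the widest bar in WT mice, unfilled.

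Beside all LrNK to cNK differences stood RNA of other cells. Neutrophil and monocyte genes (11, among them Lyz2, Csf1r and Cd14) summed to 2825 to 9593 CPM in LrNK labelled CD8KO and 754 to 4551 in LrNK WT, against 826 to 937 in cNK labelled CD8KO and 685 to 819.8 in cNK WT. Different genes carried these sums (those named here were chosen after their values were seen). Lyz2 had 1962 to 7411 CPM over samples of LrNK labelled CD8KO and 520.3 to 3532 in LrNK WT, against 14.3 to 18.9 in cNK labelled CD8KO and 12.02 to 16.28 in cNK WT. Ccr2, a chemokine receptor gene, had 220 to 805 CPM in LrNK labelled CD8KO and 90.6 to 379.8 in LrNK WT, against 731 to 825 in cNK labelled CD8KO and 609.9 to 708 in cNK WT, and made up most of the cNK sums. Of the neutrophil genes, Ly6g, Camp, Retnlg and Mpo were at 0 in all 4 libraries of LrNK WT, and Ly6g and Camp in library 1 of LrNK labelled CD8KO. Csf3r had 64.4 to 137 CPM in LrNK labelled CD8KO and 10.9 to 63.4 in LrNK WT, against 0.576 to 1.03 in cNK labelled CD8KO and 0.440 to 0.917 in cNK WT. T cell genes (9) summed to 599.5 to 817 CPM in LrNK labelled CD8KO and 805 to 1127 in LrNK WT, against 449 to 461 in cNK labelled CD8KO and 404 to 451 in cNK WT, with none at 0. Trbc1 and Trbc2 made up most of the LrNK sums, with means of 321.5 and 205.6 CPM labelled CD8KO and 525.2 and 339.8 in WT. All other genes of that list had higher means in LrNK labelled CD8KO than in LrNK WT, from Cd3d (33.07 and 27.64 CPM) to Cd6 (18.36 and 4.783). None of the T cell genes was called by label in LrNK. Dendritic cell genes (8) summed to 140 to 195 CPM in LrNK labelled CD8KO and 42.0 to 164 in LrNK WT, against 9.77 to 10.9 in cNK labelled CD8KO and 7.88 to 9.99 in cNK WT. Erythroid genes (6) summed to 301 to 3111 CPM in LrNK labelled CD8KO and 141 to 1073 in LrNK WT, against 3.17 to 5.06 in cNK labelled CD8KO and 2.80 to 4.99 in cNK WT. Hepatocyte genes (7) summed to 24.2 to 50.1 CPM in LrNK labelled CD8KO and 16.2 to 57.1 in LrNK WT, against at most 0.206 in cNK of either label. Kupffer cell genes (9) summed to 211 to 439 CPM in LrNK labelled CD8KO and 108 to 331 in LrNK WT. In cNK they summed to 166 to 252 CPM when labelled CD8KO and 173 to 225 when WT, so the ranges of the sums in LrNK and cNK overlapped. Different genes carried these sums too. Clec4f was at 0 in every cNK library, against means of 12.26 CPM in LrNK labelled CD8KO and 12.97 in LrNK WT. C1qa, C1qb and C1qc made up most of the cNK sums. Cd5l and Marco had lower means in LrNK than in cNK for either label. The part of these cells in the subunit levels was not tested. In bulk RNA, fewer cells of a type and less RNA per cell cannot be told apart.

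Within LrNK, several subunits stood apart by label, but none was called. Xist also stood apart by label in every LrNK library, as given above, so the Xist difference and the label cannot be told apart. Its part in the subunit differences was not tested. Itga1, Itga2 and Itgb7 were lower and Itga4, Itga5, Itgam and Itgae higher in every library labelled CD8KO than in every WT library. Itgal, Itgb1 and Itgb2 overlapped. Thus 7 of 10 subunits did not overlap, where 18.3% of 16504 tested genes did not: 4 of 10 were higher (9.84% of all genes) and 3 lower (8.47%). None of the 10 passed, and neither did any other gene (0% called by edgeR, with 615 genes at an unadjusted p under 0.05, 0 called by limma voom and 62, or 0.376%, by DESeq2, none of them among the 10). With the replicate number as a block, 180 of 16504 genes were called, Itgam among them.

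The largest of these differences with counts in every library was that of Itgam, at 67.7 ± 23.0 CPM in LrNK labelled CD8KO (SD, n = 2) and 24.95 ± 10.7 CPM in LrNK WT (SD, n = 3). Its log2 difference was 1.46 ± 0.39 (unadjusted p = 0.0071, edgeR adjusted p = 1), and it passed without the filter on low counts (1.46 ± 0.33, edgeR adjusted p = 0.00201). It also passed with the replicate number as a block (1.80). Within the libraries with few detected genes the ratio of LrNK labelled CD8KO to LrNK WT was 2.77, and within those with many it was 3.62. The neutrophil and monocyte sum was 9593, 2825 and 2885 CPM in LrNK labelled CD8KO, against 2657, 761, 4551 and 754 CPM in LrNK WT, so unlike Itgam it overlapped by label. Library 3 of LrNK WT had a higher sum than libraries 2 and 3 of LrNK labelled CD8KO, but a lower Itgam level. Dendritic cell genes summed to 140 to 195 CPM in LrNK labelled CD8KO and 42.0 to 164 in LrNK WT. The part of myeloid RNA in the Itgam difference was not tested.

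**Figure D4:**
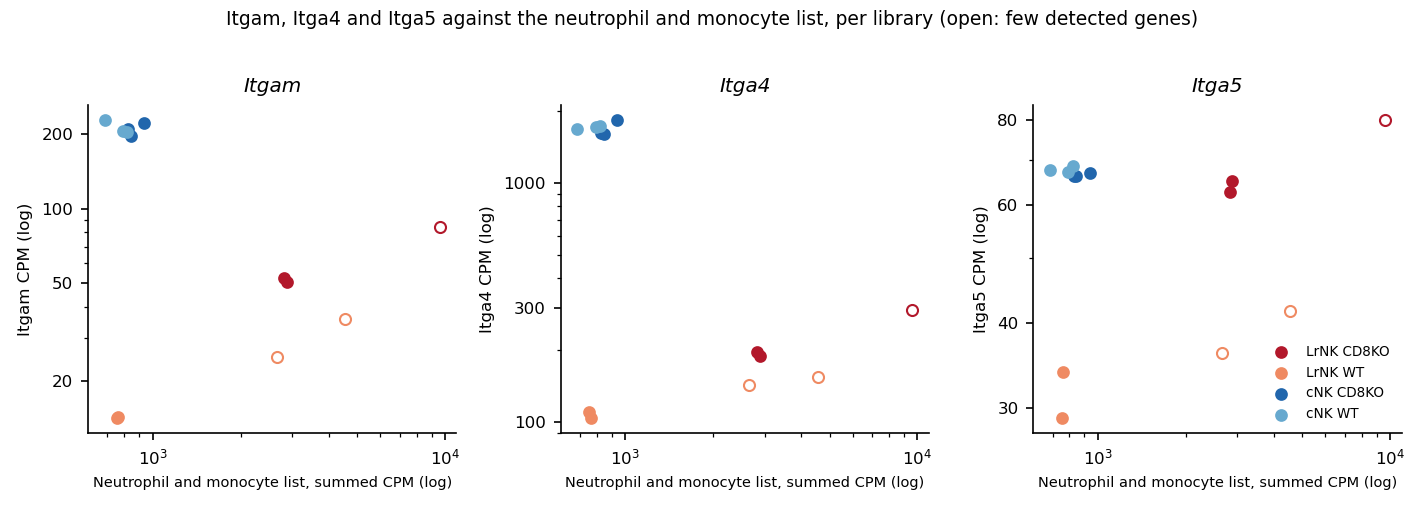
Itgam, Itga4 and Itga5 (CPM, log axis) against the summed CPM of the 11 neutrophil and monocyte genes (log axis) in each of the 13 libraries; open points are libraries with few detected genes. Libraries of LrNK labelled CD8KO lay above those of LrNK WT in all 3 panels, and cNK libraries had the highest Itgam and Itga4. The cNK sums were mostly Ccr2 and those of LrNK mostly Lyz2, so the axis compares libraries within a cell type only.

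Itga5 averaged 72.0 ± 11.5 CPM in LrNK labelled CD8KO (SD, n = 2) and 36.6 ± 4.998 CPM in LrNK WT (SD, n = 3), a log2 difference of 0.99 ± 0.22 (unadjusted p = 0.00328, edgeR adjusted p = 1). The ratio was 2.06 within the libraries with few detected genes and 2.01 within those with many. With all 4 groups in 1 fit, where 0.716% of genes were called, Itga5 passed (1.02 ± 0.13, edgeR adjusted p = 0.012). That fit gives LrNK and cNK a common spread, although the biological coefficient of variation was 98.2% within LrNK and 9.6% within cNK.

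Itga4 averaged 243 ± 70.7 CPM in LrNK labelled CD8KO and 135 ± 25.3 CPM in LrNK WT (0.86 ± 0.24, unadjusted p = 0.0102, edgeR adjusted p = 1). Its ratio was 1.97 within the libraries with few detected genes and 1.81 within those with many. Itga1 averaged 143 ± 8.83 CPM in LrNK labelled CD8KO and 268 ± 88.3 CPM in LrNK WT (−0.88 ± 0.29, unadjusted p = 0.0188, edgeR adjusted p = 1), with ratios of 0.515 and 0.609 in the sets with few and with many detected genes. The neutrophil and monocyte sums given for Itgam apply to Itga4 and Itga5 as well, and their part was not tested. NK identity genes summed lower in LrNK labelled CD8KO (5792 to 6776 CPM) than in LrNK WT (7534 to 9265 CPM). The part of that difference in the lower Itga1, Itga2 and Itgb7 was not tested. The other separated subunits were Itga2 (−0.58 ± 0.32), Itgb7 (−0.29 ± 0.22) and Itgae (2.62 ± 2.02). Their ratios within the sets with few and with many detected genes were 0.536 and 0.889 for Itga2, 0.769 and 0.875 for Itgb7, and 12.7 and 2.51 for Itgae. Those that overlapped lay near 0, at 0.08 ± 0.22 for Itgal, 0.10 ± 0.33 for Itgb1 and 0.01 ± 0.30 for Itgb2, and the signs of Itgb1 and Itgb2 turned with the samples or tool used. Values in LrNK spread widely: the coefficient of variation between samples of a group ran from 1.34% (Itgb7, LrNK labelled CD8KO) to 87.4% (Itgae, LrNK WT), against 0.543% (Itga5, cNK labelled CD8KO) to 18.1% (Itgae, cNK WT) in cNK.

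Within cNK, 1 subunit rose. Itga1 was at 18.1 ± 1.17 CPM in cNK labelled CD8KO and 10.7 ± 0.664 CPM in cNK WT (SD, n = 3 each), with all 3 libraries labelled CD8KO above all 3 of WT. It was 1.69-fold higher (log2 difference 0.75 ± 0.09, edgeR adjusted p = 0.000535), where 1.31% of 16619 tested genes were called, 0.499% of them as higher. The rise passed without any 1 of the 6 samples (0.70 to 0.81). It did not pass with all 4 groups in 1 fit (0.76 ± 0.19, adjusted p = 1), in which 1 gene, or 0.00518%, was called. DESeq2 and limma voom called it as well, among 3.08% and 2% of all genes. The level of 18.1 CPM in cNK labelled CD8KO was still 0.976 CPM per kb, the lowest of the 10 subunits there. The T cell sum was 449 to 461 CPM in cNK labelled CD8KO and 404 to 451 in cNK WT, and the B cell sum (8 genes) 216 to 228 CPM in cNK labelled CD8KO and 170 to 182 in cNK WT. Most of the T cell sum was Trbc1, at 304 CPM labelled CD8KO and 295 in WT. Cd3d was called higher, at 17.6 CPM labelled CD8KO and 11.8 in WT (edgeR adjusted p = 0.0134). Ighm, of the B cell list, was called higher too (213 and 171 CPM, edgeR adjusted p = 0.00264). No other gene of these lists was called. Xist also differed by label in 2 of the 3 cNK libraries labelled CD8KO, as given above. The part of any of these in the rise of Itga1 was not tested.

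The other 9 subunits of cNK did not pass. Itgb7 came closest, at 773 ± 23.2 CPM in cNK labelled CD8KO and 697 ± 17.9 CPM in cNK WT, without overlap (0.14 ± 0.04, unadjusted p = 0.00581, edgeR adjusted p = 0.158). Itgal was higher and Itga5 lower in cNK labelled CD8KO without overlap, by differences of 0.03 ± 0.04 and −0.04 ± 0.05 on the log2 scale. So 4 of 10 subunits did not overlap, where 18% of tested genes did not: 3 were higher (9.68% of all genes) and 1 lower (8.35%). Itga2, Itga4, Itgam, Itgb1 and Itgb2 differed by −0.04 to 0.04 on the log2 scale with standard errors of 0.04 to 0.06, and Itgae by 0.21 ± 0.15.

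**Figure D5:**
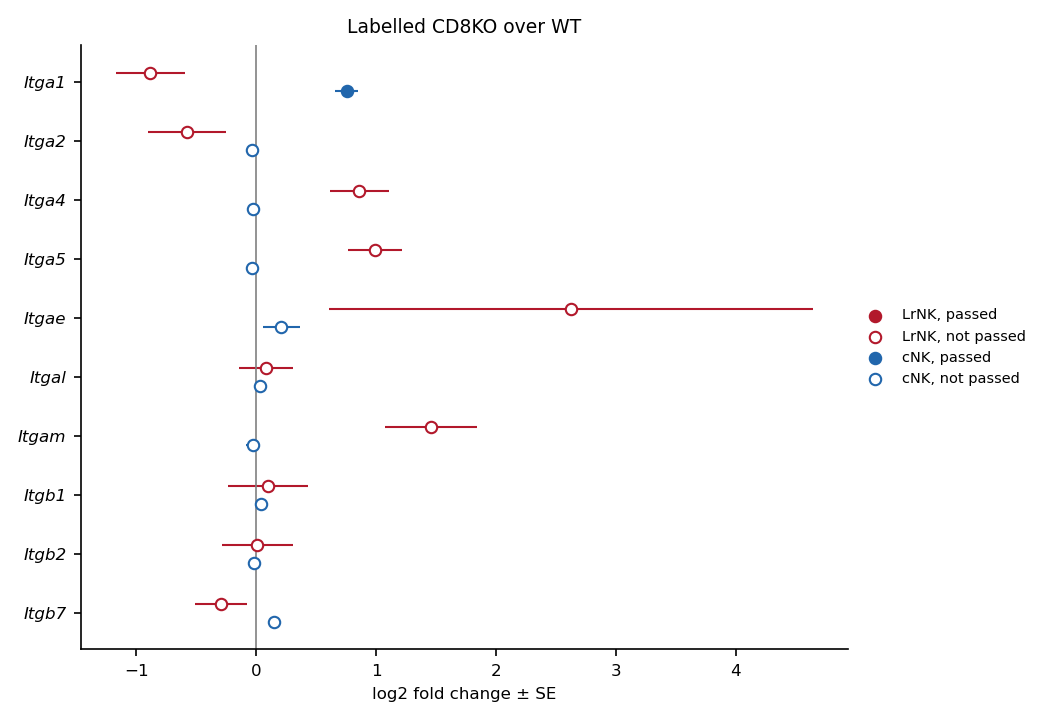
Log2 fold change of labelled CD8KO over WT for each subunit in LrNK (red) and cNK (blue), with bars of 1 SE; filled points passed an edgeR adjusted p of 0.05 and open points did not. The cNK values lay close to 0 apart from Itga1 at 0.75, the only filled point, and the LrNK values ran from −0.88 to 2.62 with wide bars.

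Whether the label's effect differed between LrNK and cNK was tested with all 4 groups in 1 model. The Xist differences by label given above apply here as well, and their part was not tested. No subunit passed, where 0.0415% of 19287 tested genes were called (0.00518% higher and 0.0363% lower). The smallest adjusted p among the 10 was that of Itga5 (difference of the log2 effects 1.06 ± 0.17, edgeR adjusted p = 0.108), followed by Itga1 (−1.62 ± 0.28, edgeR adjusted p = 0.14). Itga4 (0.92 ± 0.23, adjusted p = 0.285) and Itgam (1.51 ± 0.39, adjusted p = 0.294) came next. DESeq2 called 5 of the 10 (Itga1, Itga4, Itga5, Itgam and Itgb7, among 1.75% of all genes) and limma voom called Itga1 (among 0.0311%). Single samples decided calls too: Itgam passed without the summed sample of LrNK WT (1.26, edgeR adjusted p = 0.0424). Without the summed sample of LrNK labelled CD8KO, which leaves 1 sample in that group, Itga4 was at 1.12 and Itga5 at 1.14. Itga1 passed without LrNK WT sample 1, 2 or 3 (−1.39, −1.68 and −1.77, with adjusted p of 0.0259, 0.0246 and 0.022). Itga5 passed without LrNK WT sample 2 or 3 (1.01 and 1.15, edgeR adjusted p of 0.021 and 0.0133).

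The wider integrin machinery was read from lists of genes with known roles. Of 17 other integrin subunits, 12 were tested in WT mice, where 3 were higher in LrNK than in cNK and 1 was lower. In mice labelled CD8KO, 13 were tested, 4 higher and 1 lower. The shares over all genes tested were 10.9% higher and 9.83% lower in WT mice and 15.4% higher and 11.6% lower in mice labelled CD8KO, so the counts of lower subunits were near the background. Itgb3, a beta chain of vitronectin receptors, was higher in LrNK for either label, at 107 CPM in LrNK labelled CD8KO and 26.1 CPM in its cNK (2.17 ± 0.19, edgeR adjusted p = 0.00156) and at 101 CPM in LrNK WT and 25.97 CPM in cNK WT (2.04 ± 0.13, edgeR adjusted p = 0.000271). Itgb5, another beta chain of that kind, was higher by 3.09 ± 0.23 and 1.91 ± 0.45 for those labels. Itga6, a laminin receptor chain, was lower, at 14.5 CPM in LrNK labelled CD8KO and 56.6 CPM in its cNK (−1.84 ± 0.11) and at 8.64 CPM in LrNK WT and 48.1 CPM in cNK WT (−2.37 ± 0.33). The other calls were Itga3 in WT mice (1.22 ± 0.18) and, in mice labelled CD8KO, Itga8, which had 3.05 CPM in LrNK and 0 in cNK, and 1 more subunit that was higher. Itgb3 and Itgb5 are also made by macrophages. The neutrophil and monocyte sums given above apply to them, and their part was not tested.

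Of the genes that switch integrins to their active form, 1 of 14 tested was higher and 3 were lower in LrNK WT than in cNK WT, and 4 of 16 were higher and 2 lower in LrNK than in cNK labelled CD8KO. Over all genes, 20.7% were called in WT mice and 27% in mice labelled CD8KO. Set against those shares, the counts of activators, and of the brakes and adhesion genes that follow, give no result about these lists as wholes. Rasgrp2, the exchange factor that activates Rap in platelets and leukocytes, was lower for either label (−1.32 ± 0.10 labelled CD8KO, edgeR adjusted p = 0.000976, and −1.66 ± 0.10 in WT mice, edgeR adjusted p = 0.000212). Of 8 integrin brakes, 2 were higher and 1 lower in mice labelled CD8KO, and 1 was higher and 2 lower in WT mice. Rasa3, a Rap inhibitor, was lower for either label (−1.56 ± 0.27 labelled CD8KO and −2.51 ± 0.11 in WT mice), as was Flna, a filamin that competes with talin, in WT mice (−1.90 ± 0.15). Dok1, an adaptor that binds beta tails, was higher (1.04 ± 0.10 labelled CD8KO and 1.04 ± 0.12 in WT mice). Of the genes that signal at adhesion sites, 6 of 18 tested were higher and 2 lower in mice labelled CD8KO, and 4 of 17 were higher and 4 lower in WT mice. Among them the kinase gene Fyn was lower (−1.59 ± 0.14 labelled CD8KO and −1.50 ± 0.22 in WT mice) and the scaffold gene Nedd9 higher (1.46 ± 0.17 and 1.51 ± 0.20 for those labels).

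Integrin ligands were measured in the same RNA. In LrNK, 7 of 10 tested were higher and 2 lower than in cNK for mice labelled CD8KO, and 5 of 9 were higher and 2 lower for WT mice, where 15.4% of all genes were higher and 11.6% lower in mice labelled CD8KO, and 10.9% higher and 9.83% lower in WT mice. Endothelial genes (8), which mark a source of matrix and junction ligands, summed to 36.4 to 117 CPM in LrNK labelled CD8KO and 23.4 to 39.2 in LrNK WT, against 4.32 to 7.83 in cNK labelled CD8KO and 4.99 to 6.63 in cNK WT. Their part in the ligand levels was not tested. Vcam1, a ligand of Itga4 dimers, was at 4.83 CPM in LrNK labelled CD8KO and 84.97 CPM in its cNK (−4.05 ± 0.40, edgeR adjusted p = 0.00205) and at 3.73 CPM in LrNK WT and 84.2 CPM in cNK WT (−4.45 ± 0.62, edgeR adjusted p = 0.00506). The Kupffer cell sums of cNK given above, mostly C1qa, C1qb and C1qc with Clec4f at 0, apply to Vcam1, and their part was not tested. Cdh1, E-cadherin, the ligand of the Itgae and Itgb7 dimer, was at 13.25 CPM in LrNK labelled CD8KO and 0.580 CPM in its cNK (4.63 ± 0.29, edgeR adjusted p = 0.000611) and at 31.0 CPM in LrNK WT and 0.492 CPM in cNK WT (6.07 ± 0.52, edgeR adjusted p = 0.000904). Fn1, fibronectin, the ligand of the Itga5 and Itgb1 dimer and a gene that macrophages also express, was at 387 CPM in LrNK labelled CD8KO and 0.115 CPM in its cNK, and at 86.5 CPM in LrNK WT and 0.0632 CPM in cNK WT. Icam1, a ligand of the Itgb2 integrins, was higher in LrNK WT than in cNK WT (0.85 ± 0.14, edgeR adjusted p = 0.0094).

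Of 9 genes of TGF-beta signalling, a pathway known to raise Itga1 and Itgae in lymphocytes, 2 were higher (Tgfb1 and Tgfbr1) and 2 lower (Smad3 and Smad4) in LrNK than in cNK for either label. The shares of all genes called, for this list and the next ones, were 20.7% in WT mice (10.9% higher and 9.83% lower) and 27% in mice labelled CD8KO (15.4% higher and 11.6% lower). Tgfb1 was higher by 1.77 ± 0.10 labelled CD8KO and 1.21 ± 0.17 in WT mice. All 12 liver residence genes were higher in LrNK for either label, such as the chemokine receptor gene Cxcr6 (5.77 ± 0.27 labelled CD8KO and 6.17 ± 0.26 in WT mice). The lists were chosen with earlier results of these data known, so their counts are no independent test. Of 10 conventional maturation genes, 5 were lower in mice labelled CD8KO and 8 in WT mice, such as Eomes, a T-box factor of conventional NK cells (−6.33 ± 0.30 and −7.99 ± 0.86 for those labels), and none was higher. By label, no gene of these 8 lists was called in LrNK, and Ly6c2 (−0.36 ± 0.08, edgeR adjusted p = 0.0334), of the maturation list, was called in cNK.

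Genes whose profiles were most like those of 5 subunits were sought over the 11 samples among 9738 genes, by the root mean square difference of centred log2(CPM + 1). For Itga1 these were Asb2, Lag3, a checkpoint receptor, and Cdh1, with differences of 0.278, 0.292 and 0.303. For Itga2 they were Klra7, an inhibitory Ly49 receptor, Clip4 and Sh2d1a, an adaptor of SLAM receptors (0.197, 0.252 and 0.276). For Itgam they were Prr5l, Cmklr1, the chemerin receptor, and Sbk1 (0.201, 0.221 and 0.307). Those of Itgae were Rasgef1a, Abcb1b and Bace1 (0.251, 0.286 and 0.301), and those of Itgb7 included Il27ra and Ndfip1 (0.0625 and 0.0688). Cmklr1 shows how close such a profile is: it averaged 48.7 CPM in LrNK labelled CD8KO, 17.3 in LrNK WT, 150.3 in cNK labelled CD8KO and 155 in cNK WT. Likeness here says nothing of shared function or control.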

How the data were processed

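Deposited files gave gene counts for 13 libraries, with HISAT2 2.1.0 and GRCm38 named in the submitters' processing notes. Libraries were made with an Illumina TruSeq kit after sorting and Trizol extraction, per the labels' protocols. How reads were counted (tool, annotation release, strand) is not given in the sources used here, so reads of a gene and of an overlapping or antisense neighbour may be mixed. Of 54532 identifiers, 54495 matched GENCODE M21, which gave symbols, coordinates and exon lengths. Among counts from 1 to 20 in a library, 49.5 to 65.2% were even, and they were left as deposited.

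From the counts, CPM and CPM per kb of exon were computed. Libraries 2 and 3 of LrNK labelled CD8KO (chi-square per degree of freedom 2.67) and 2 and 4 of LrNK WT (3.04) were summed, since the other LrNK pairs gave 196 to 283 and cNK pairs 8.9 to 18.1. Tests used edgeR 4.0.16 in R 4.3.3 (TMM, filterByExpr with a minimum count of 10 and minimum total of 15, quasi-likelihood test, Benjamini-Hochberg adjustment over all genes tested). Each comparison of 2 groups was fitted on those groups alone. The difference of the label's effects used all 4 groups, although their spread was unequal. DESeq2 1.42.0, limma 3.58.1 (voom with sample weights), other scaling, no filter, a replicate block, sets of detected genes and leaving out each sample were the alternatives, and Gm49368 counts were added to Itgam after the data were seen.

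Named were the 10 subunits, overlapping genes, list genes that were called (at most 4 per list and comparison) and 3 like genes for each of 5 subunits, of which 1 is not reported here. Counts of list genes come from 8 pathway lists, and marker lists of other cells were written from general knowledge. The subunits, lists and the limit of 16000 detected genes were chosen with earlier results of these data known. Intervals and floors cover counting error only. Replicate numbers were not used to pair the samples in the main tests.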

Additional observations from a re-analysis of the deposited data

Results flagged for a closer look

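For 3 subunits every sample labelled CD8KO moved one way from WT in LrNK and the opposite way in cNK. Itga1 was lower in LrNK and higher in cNK, with a difference of the label's effects of −1.616 on the log2 scale, 3.06-fold. Itga5 was higher in LrNK and lower in cNK (1.055), though by only −0.04 in cNK. Itgb7 was lower in LrNK and higher in cNK (−0.413). The test of the difference did not pass in edgeR for Itga1 (adjusted p = 0.14, range over 17 alternatives 1.94e-05 to 0.401), Itga5 (0.108, range 3.98e-07 to 0.425) or Itgb7 (0.469, range 0.00461 to 0.868). Itga1 passed with DESeq2 (−1.61), limma voom (−1.70), no filter (−1.59), all 13 libraries as separate samples (−1.60) and without LrNK WT sample 1, 2 or 3 (−1.39, −1.68 and −1.77). Itga5 passed with DESeq2 (1.05), all 13 libraries (1.03) and without LrNK WT sample 2 or 3 (1.01 and 1.15). Without the summed sample of LrNK labelled CD8KO, which leaves 1 sample in that group, it was at 1.14. Itgb7 passed with DESeq2 (−0.41).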

How the results depend on the processing

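Over the alternatives run, the subunit differences kept their direction and side of the threshold in 123 of 131 results for LrNK by label, 124 of 131 for cNK by label, 123 of 141 for LrNK against cNK in WT mice, 110 of 131 for mice labelled CD8KO and 147 of 171 for the difference of the label's effects. Signs turned in subunits that lay near 0. By label in LrNK these were Itgb1 (−0.288 to 0.402 when 1 sample was left out) and Itgb2 (−0.276 to 0.247, and −0.014 with voom). By label in cNK they were Itga4 (−0.088 to 0.007), Itgam (−0.068 to 0.037) and Itgb2 (−0.051 to 0.024, and 0 with voom). In the difference they were Itgb1 (−0.33 to 0.384, and −0.056 with voom) and Itgb2 (−0.26 to 0.287, and −0.078 with voom). The cause was not tested.

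Counts of calls depended far more on the choice. For LrNK by label the 0 called genes became 138 with all 4 groups in 1 fit (1 subunit, Itga5), 22 with 13 separate libraries, 62 with DESeq2 and 259 without a filter (1 subunit, Itgam, adjusted p = 0.00201), and it was 0 without any 1 sample. For cNK by label the 218 became 1 with all 4 groups (0 subunits), 512 with DESeq2, 332 with voom and 590 without a filter, and 71 to 254 with 1 sample left out; it was 90 without cNK WT sample 1 and 71 without sample 2 of cNK labelled CD8KO. For LrNK against cNK in WT mice the 3414 became 11526 with only the libraries with many detected genes (1 LrNK sample), and 1021 to 6856 with 1 sample left out (6 to 10 subunits), the highest without LrNK WT sample 2 and 1021 to 1101 without a cNK sample. For mice labelled CD8KO the 4804 became 10872 with only those libraries (again 1 LrNK sample, the same fit as without LrNK sample 1), and 1688 to 13004 with 1 sample left out (4 to 9 subunits), the lowest being 1688 to 1803 without a cNK sample and the highest without the summed LrNK sample. For the difference the 8 became 68 with 13 separate libraries (2 subunits), 337 with DESeq2 (5 subunits), and 5 to 645 with 1 sample left out (0 to 3 subunits), the 645 being without LrNK WT sample 2; 1 subunit passed with voom and 1 without a filter.

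Deviations of same-numbered LrNK samples correlated at 0.299 and 0.491, and the other 13 pairs at −0.1 to 0.055. With n = 2, the samples of LrNK labelled CD8KO deviate by mirror amounts: LrNK WT sample 1 gave 0.299 with one and −0.299 with the other. The check therefore cannot decide whether replicate numbers pair the LrNK samples. With the replicate number as a block, called genes were 180 for LrNK by label (1 subunit, Itgam, 1.80, adjusted p = 0.0309), 355 for cNK by label, 1801 and 2162 for LrNK against cNK in WT mice and in mice labelled CD8KO, and 6 for the difference. Itgb2 lost its call under the block in both of those cell type comparisons (adjusted p = 0.0808 and 0.0906). The median log2 difference of all genes for LrNK against cNK in WT mice was −0.08, and −0.28 with voom, −0.30 without a filter and −0.27 under the block, so small differences are relative to that shift. Where a choice left an arm with 1 sample, that sample was assumed to vary like the other arm. Samples of 2 or 3 per group and the wide spread of LrNK limit what can be called there.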
